A study of Mus musculus with 18 samples.

Results

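The dopamine and adenosine receptor genes Drd1, Drd2, Drd3, Drd5, Adora1 and Adora2a were followed in 2 brain regions of mice in pain, the BNST (bed nucleus of stria terminalis) and the prelimbic mPFC (medial prefrontal cortex). They were taken by symbol and are 6 of the 55401 gene identifiers in the deposited table, and all 6 had enough counts to be among the 18994 genes tested. The mice were wild-type C57BL/6 males of 6 to 8 weeks, in 3 treatment groups. Formalin mice received 10 μL of 1% formalin in the hind paw and were collected 24 h later, as a model of acute pain. Mice given complete Freund's adjuvant (CFA), 10 μL at 50%, were collected 72 h later, as a model of persistent pain. Control mice received neither agent, and figure legends of the study call them sham-treated. Agent and time of collection differ together, so they cannot be told apart. Each region had 3 polyA RNA libraries per treatment, 18 in 6 groups. By animal numbers in headers of supplementary tables, both regions came from the same 3 mice after formalin and after CFA, whereas control BNST came from animals 1, 2 and 4 and control mPFC from animals 2, 3 and 4.

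Dopamine and adenosine receptors are G protein-coupled receptors that act on the same second messenger, cyclic AMP. Drd1 and Drd5 encode receptors of the D1 class, which stimulate adenylyl cyclase, and Drd2 and Drd3 encode receptors of the D2 class, which inhibit it. Adora2a encodes a stimulatory adenosine receptor, and Adora1 an inhibitory one that is widespread in cortex. In the striatum, Drd1 marks the medium spiny neurons of the direct pathway, and Drd2 and Adora2a are found together in those of the indirect pathway. The BNST lies beside the striatum and receives dopamine fibres.

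BNST libraries held 14781315 to 21774670 counts and mPFC libraries 15684723 to 23408503. No pair of replicates was alike within sampling noise, since chi-square divided by its degrees of freedom was at least 8.05 in BNST pairs and 3.8 in mPFC pairs. The choroid plexus markers summed to 17684 CPM in BNST CFA replicate 2, against 217 and 177 CPM in the other BNST CFA libraries, 2914 to 8788 CPM after formalin and 34.4 to 739 CPM in control BNST. By headers of the study's supplementary tables, 15 libraries were in lane 2; lane 1 held BNST control replicates 1 and 2, and lane 3 held BNST formalin replicate 1. Levels are CPM, counts scaled to library size with TMM factors, and TPM where genes are compared with each other, since TPM also divides by exon length. An edgeR quasi-likelihood model was fitted to all 18 libraries. Called genes had an adjusted p (Benjamini-Hochberg, over all genes tested) below 0.05 and a log2 fold change beyond 0.5 in either direction, and "rose" and "fell" are used only of them. P-values of this model rest on the spread between libraries of the same group, pooled over all 6 groups. A BNST p-value therefore also draws on the spread between mPFC libraries, and is not a measure of BNST spread alone.

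The genes lie on 6 chromosomes of GRCm38. Drd1 is at chr13:54051183-54055705 on the minus strand, Drd2 at chr9:49340627-49408177 on the plus strand, and Adora2a at chr10:75316877-75334784 on the plus strand. Drd3 is at chr16:43754026-43822932 (plus), Drd5 at chr5:38319367-38322518 (plus) and Adora1 at chr1:134199223-134235431 (minus). Values are counts over all annotated exons of a gene, coding and untranslated. Exons of Drd5 overlap 1531 bases of the antisense gene Gm26560, which had 1 to 10 counts per library, and exons of Adora1 overlap 1162 bases of Mybph, with 1 to 18 counts. The strand setting of the counting is not given in the sources used here, so reads in these overlaps cannot be told apart.

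RefSeq promoter windows on GRCm38.p6, from 250 bases before to 50 bases from a start site on, matched 5 of the 6 genes, and Adora2a was not matched. Drd1 and Adora1 had 2 windows each, and only the window nearest the annotated gene start was searched. The windows searched for Drd1, Drd2 and Adora1 are shown with the GC box GGGCGG in capitals on either strand (its reverse reads CCGCCC). Drd1 and Drd2 fell together after CFA in the BNST, and Adora1 was not called there. The Drd1 window is chr13:54055609-54055908 (minus), the Drd2 window chr9:49340153-49340452 (plus) and the Adora1 window chr1:134235408-134235707 (minus), each written 5′ to 3′ along its gene.
Drd1: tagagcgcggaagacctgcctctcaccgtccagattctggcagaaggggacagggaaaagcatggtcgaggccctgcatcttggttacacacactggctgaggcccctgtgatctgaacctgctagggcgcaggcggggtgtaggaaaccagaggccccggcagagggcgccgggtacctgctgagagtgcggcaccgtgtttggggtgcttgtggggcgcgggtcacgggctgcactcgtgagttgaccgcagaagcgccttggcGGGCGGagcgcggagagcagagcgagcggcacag
Drd2: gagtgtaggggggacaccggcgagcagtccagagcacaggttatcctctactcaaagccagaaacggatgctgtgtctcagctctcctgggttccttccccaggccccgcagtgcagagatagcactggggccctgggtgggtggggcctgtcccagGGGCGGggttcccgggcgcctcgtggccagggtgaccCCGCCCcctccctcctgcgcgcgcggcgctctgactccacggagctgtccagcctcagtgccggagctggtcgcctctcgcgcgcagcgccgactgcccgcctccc
Adora1: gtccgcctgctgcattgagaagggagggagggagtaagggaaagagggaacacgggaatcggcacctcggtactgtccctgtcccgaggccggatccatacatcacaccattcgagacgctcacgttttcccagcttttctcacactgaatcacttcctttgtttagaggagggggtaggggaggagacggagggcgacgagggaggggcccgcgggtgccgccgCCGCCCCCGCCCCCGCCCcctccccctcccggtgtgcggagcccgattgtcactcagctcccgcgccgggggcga
The GC box occurred 1 time in the Drd1 window, 2 times in that of Drd2, 3 times in that of Adora1 and 2 times in that of Drd5, and it was not in the Drd3 window. It was present in 35.7% of all 32851 windows of that length. Other motifs searched on both strands had no match in the 5 windows. They were the TATA box TATAAA (present in 13.6% of all windows), the cyclic AMP response element TGACGTCA (1.8%), its core TGACG, which it contains (20.8%), and the E-boxes CACGTG (7.2%) and CAGCTG (16.3%). The GC content was 65.7% for Drd1, 70.3% for Drd2, 42% for Drd3, 70.3% for Drd5 and 66% for Adora1, with a median of 52.7% over all windows. The Drd3 window lies 8195 bases from the start of the gene in the annotation used for the counts.

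Levels per exon length put Adora1 first in the BNST after CFA and Adora2a first after formalin and in control BNST. After CFA, Adora1 was first at 67.9 ± 11.7 TPM, followed by Drd2 at 29.5 ± 2.7, Drd1 at 18 ± 7.1, Adora2a at 11.8 ± 7.1, Drd3 at 3.4 ± 1.04 and Drd5 at 2.44 ± 0.75 TPM (SD, n = 3). After formalin, Adora2a was at 96.9 ± 18.9 TPM, Drd2 at 86.5 ± 13.9, Drd1 at 71.4 ± 10.9, Adora1 at 69.7 ± 18, Drd5 at 2.68 ± 1.10 and Drd3 at 2.65 ± 0.08 TPM. In the control BNST the order was Adora2a at 193 ± 83.6 TPM, Drd2 at 138 ± 47.5, Drd1 at 117 ± 38.8, Adora1 at 65.2 ± 24.3, Drd3 at 6.70 ± 1.83 and Drd5 at 2.76 ± 0.39 TPM. Formalin replicate 2 had the order of the 3 control libraries. Adora1 thus stood above Adora2a in all 3 CFA libraries and below it in all 3 formalin and all 3 control libraries. Within the control group the ranges of Adora2a, Drd2 and Drd1 overlapped (111 to 278, 87.2 to 181 and 81.0 to 158 TPM), and so did those of Drd1 and Adora1 (39.8 to 88.4 TPM for Adora1), while Drd3 and Drd5 stood apart below. After CFA, the ranges of Adora1 (54.6 to 76.6 TPM) and Drd2 (26.7 to 32.1 TPM) stood apart from each other and from the rest, whereas those of Drd1 (9.81 to 22.3 TPM) and Adora2a (3.88 to 17.5 TPM) overlapped.

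The mPFC was led by the inhibitory adenosine receptor in every treatment. Adora1 was at 97.0 ± 3.8 TPM after formalin, 109 ± 4.3 TPM after CFA and 108 ± 11.2 TPM in control mPFC, and Drd1 came next at 15.3 ± 2.1, 18 ± 2.6 and 16.0 ± 1.3 TPM. Drd5, Adora2a and Drd2 were each at 1.39 to 4.6 TPM in the 9 mPFC libraries, and their order changed from library to library. Drd3 had 2, 1 and 3 counts over the 3 libraries of the formalin, CFA and control groups. The plot of levels by library shows the 6 genes in both regions.

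**Figure D1:**
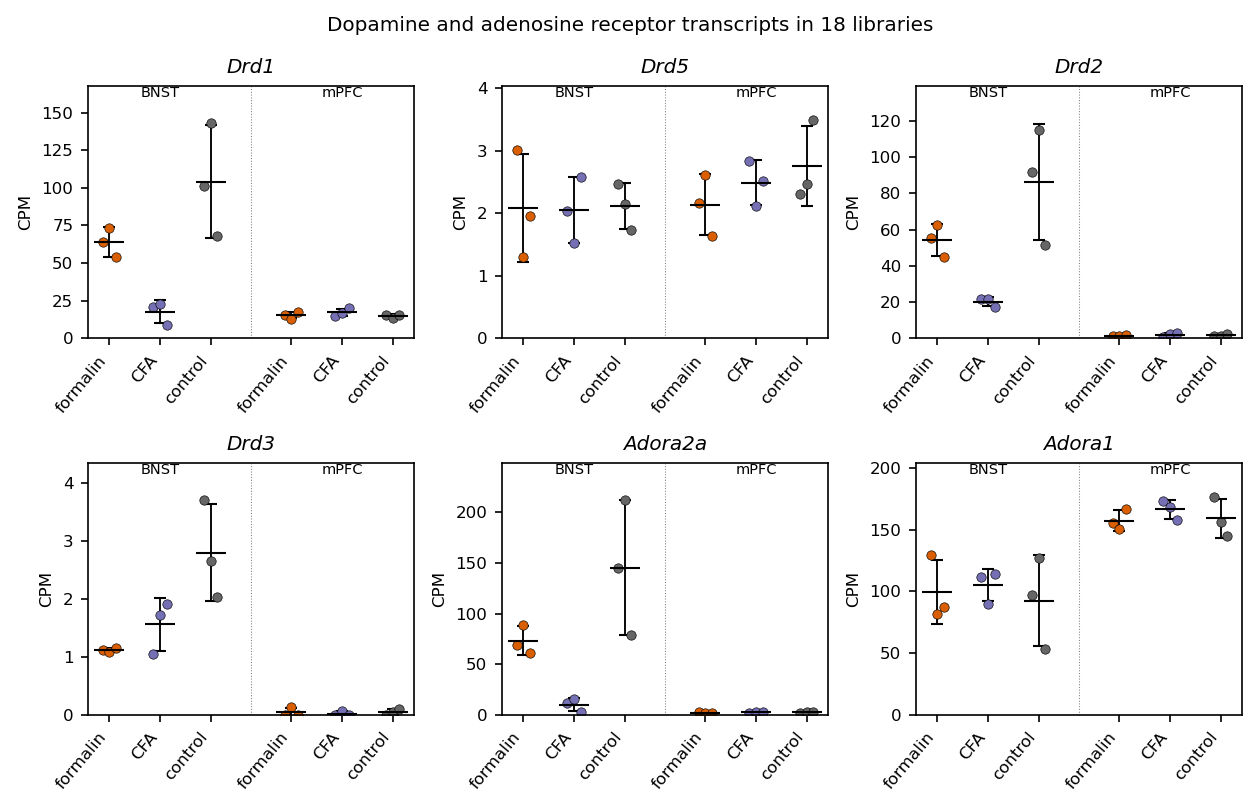
CPM of each receptor gene (y axis, linear from 0, a separate scale per panel) in 18 libraries, 1 point per library, by treatment within BNST (left) and mPFC (right); the horizontal line and bar are the mean and SD of 3 libraries. Drd1, Drd2 and Adora2a are low in the 3 BNST CFA libraries, and Adora1 is at 145 to 176 CPM in every mPFC library.

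Between the regions, the question was how receptor levels of the BNST stood against those of the mPFC in each treatment. In CFA mice, Drd2 and Adora2a were higher and Adora1 lower in the BNST, whereas Drd1, the D1-class receptor of direct-pathway neurons, was not called. After CFA, 4 of 6 genes were called, against 38.1% of all genes tested. After formalin it was 5 of 6 (33.3% of all genes), and in control mice 5 of 6 (26.6% of all genes), in both cases 4 higher in the BNST and Adora1 lower. Each of these numbers includes Drd3, which had enough counts to be tested only through the BNST libraries. The median log2 fold change of the 6 genes was 0.95, 3.32 and 4.19 after CFA, after formalin and in control mice, against 0.03, −0.01 and 0.04 over all genes.

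Drd1 was at 17.8 ± 7.6 CPM in the BNST and 17.2 ± 2.4 CPM in the mPFC after CFA, a log2 fold change of 0.04 (95% interval −0.62 to 0.71). It was at 63.9 ± 9.8 and 15.6 ± 2.3 CPM after formalin (log2 fold change 2.04), and at 104 ± 37.4 and 14.9 ± 1.2 CPM in control mice (2.81), and it was called in both. Drd2 was at 20.3 ± 2.4 CPM in the BNST against 2.12 ± 1.09 CPM in the mPFC after CFA, a log2 fold change of 3.27 (SE 0.37, edgeR adjusted p = 5.2e-06). Its log2 fold change was 5.24 after formalin and 5.65 in control mice. Adora2a had 11.5, 15.3 and 3.05 CPM in the BNST after CFA, against 2.36, 2.78 and 3.09 CPM in the mPFC. The ranges overlapped, since BNST CFA replicate 3 lay below the highest mPFC library. Its log2 fold change of 1.85 was called (SE 0.54, edgeR adjusted p = 0.011), but not with limma-voom (1.54, adjusted p = 0.1) or without BNST CFA replicate 2 (1.38, adjusted p = 0.08). It was 4.98 after formalin and 5.77 in control mice.

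Drd3, a D2-class receptor of limbic forebrain, was nearly confined in counts to the BNST. It had 95 counts in the BNST and 1 in the mPFC after CFA, 66 and 2 after formalin, and 140 and 3 in control mice. The ratios per scaled library were 75.7 (95% exact interval 13.3 to 3020), 28.8 (7.65 to 242) and 53.8 (18 to 264), and these intervals cover counting error only. Drd3 was called in all 3 treatments, with edgeR adjusted p up to 4.8e-05. It had enough counts to be tested only through the BNST libraries, so these calls are not separate support for the difference in counts.

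Adora1 was at 105 ± 13.2 CPM in the BNST and 167 ± 7.6 CPM in the mPFC after CFA, at 99.5 ± 25.8 and 157 ± 8.3 CPM after formalin, and at 92.6 ± 37.1 and 159 ± 15.8 CPM in control mice. No BNST library reached the lowest mPFC library. The log2 fold changes were −0.66, −0.66 and −0.78 (SE 0.24 each; edgeR adjusted p = 0.029, 0.032 and 0.017), the smallest among the calls. The call after CFA was lost without BNST CFA replicate 1 or 2 or mPFC CFA replicate 1 or 2, that after formalin without any formalin library except BNST replicate 1, and that in control mice without mPFC control replicate 1 (edgeR adjusted p up to 0.12). Without a filter on low counts the calls after CFA and after formalin were lost too (edgeR adjusted p = 0.091 and 0.094). Drd5, the D1-class receptor with the highest affinity for dopamine, was at 1.3 to 3.01 CPM in the 9 BNST libraries and 1.64 to 3.49 CPM in the 9 mPFC libraries. Its log2 fold changes of −0.28, −0.04 and −0.38 were not called, with 95% intervals from −0.90 to 0.34, −0.67 to 0.58 and −0.99 to 0.24.

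In the BNST after CFA, the receptors of medium spiny neurons were lower than in the control group. Drd1, Drd2 and Adora2a fell, and Drd3, Drd5 and Adora1 were not called. The 3 calls of 6 stand beside 7.06% of all 18994 genes called lower and 11.9% called either way. The 6 genes were chosen with earlier results of these data known, so this share is not separate support. The median log2 fold change was −1.46 over the 6 genes and 0.01 over all genes. In bulk tissue, fewer cells of a type and less RNA per cell cannot be told apart.

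Drd1 had 21.1, 23.2 and 9.16 CPM in the CFA libraries, against 101, 143 and 68.3 CPM in the control libraries. The groups did not overlap. The log2 fold change was −2.55 (SE 0.31, edgeR adjusted p = 8.9e-05), a 5.86-fold fall. Drd2, the D2-class receptor that is also the autoreceptor of dopamine neurons, had 21.8, 21.5 and 17.5 CPM after CFA, against 92.0, 115 and 51.6 CPM in control BNST. Again there was no overlap, and the 3 CFA libraries lay close together while the control libraries spread widely. The log2 fold change was −2.09 (SE 0.30, edgeR adjusted p = 3.0e-04), a 4.25-fold fall.

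Adora2a had 11.5, 15.3 and 3.05 CPM after CFA, against 145, 212 and 78.7 CPM in control BNST. CFA replicate 3 was the lowest of the 9 BNST libraries for Adora2a, for Drd1 and for Drd2. The log2 fold change of Adora2a was −3.87 (SE 0.46, edgeR adjusted p = 1.0e-04), a 14.7-fold fall. Without CFA replicate 2, the library rich in choroid plexus markers, the log2 fold changes were −2.79 for Drd1, −2.13 for Drd2 and −4.34 for Adora2a. All 3 were called in each of the 28 alternatives run, with ranges of −2.79 to −1.95 for Drd1, −2.35 to −1.35 for Drd2 and −4.34 to −2.99 for Adora2a. The alternative without a fold threshold could not lose a call. Leaving out an mPFC or BNST formalin library could change these calls only through the shared model. The highest adjusted p over the alternatives (edgeR, DESeq2 or limma-voom) was 0.034 for Drd1, 0.019 for Drd2 and 0.041 for Adora2a. The smallest changes came from the lane 2 libraries, where control replicate 3, the lowest control library for the 3 genes, is the only control. That fit takes its spread from the other groups and assumes that the lone control varies like them, so its calls say nothing of the spread between control mice.

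The other receptors had no call after CFA. Drd3 had 1.05, 1.72 and 1.93 CPM after CFA against 3.71, 2.66 and 2.04 CPM in control BNST, values that did not overlap (log2 fold change −0.83, SE 0.39, edgeR adjusted p = 0.13). Drd5 had 2.04, 1.53 and 2.58 CPM after CFA against 2.47, 2.15 and 1.73 CPM in control BNST (log2 fold change −0.05, 95% interval −0.67 to 0.58). Adora1 had 112, 90.2 and 114 CPM after CFA against 97.0, 127 and 53.6 CPM in control BNST (log2 fold change 0.18, 95% interval −0.32 to 0.69). In the lane 2 libraries the Adora1 change was 0.97 and was called (edgeR adjusted p = 2.2e-04), against control replicate 3 alone, whose Adora1 level was the lowest of the 18 libraries.

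**Figure D2:**
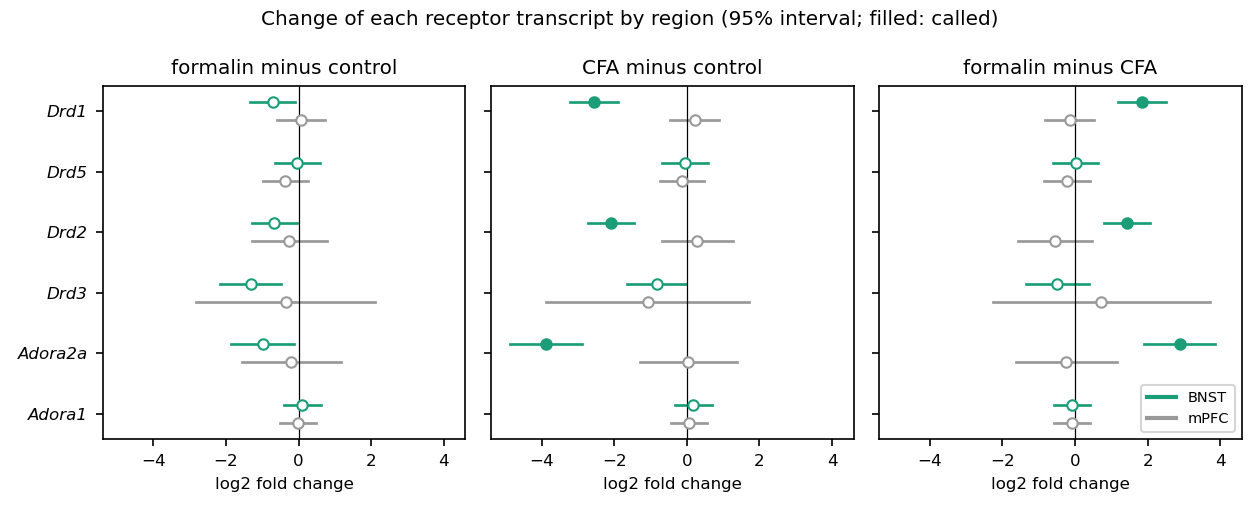
Log2 fold change of each receptor gene (x axis) with its 95% interval for formalin minus control, CFA minus control and formalin minus CFA, in BNST (green, upper point) and mPFC (grey, lower point); filled points were called. Calls are limited to Drd1, Drd2 and Adora2a in the BNST, in the 2 comparisons that include CFA.

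After formalin, none of the 6 genes was called against control BNST, where 0.3% of all genes were called. At an unadjusted p under 0.05 there were 4 of 6 genes, beside 19.6% of all genes, and DESeq2 and limma-voom also called none of the 6. Drd1 had 64.3, 73.6 and 53.9 CPM after formalin against 101, 143 and 68.3 CPM in control BNST (log2 fold change −0.71, edgeR adjusted p = 0.2). Drd2 had 55.5, 62.4 and 45.0 CPM against 92.0, 115 and 51.6 CPM (−0.67, edgeR adjusted p = 0.22), and Adora2a 69.5, 89.0 and 61.2 CPM against 145, 212 and 78.7 CPM (−0.99, adjusted p = 0.2). For all 3 genes control replicate 3 lay within the range of the formalin libraries, so the groups overlapped. In the lane 2 libraries, with control replicate 3 as the only control, the log2 fold changes were −0.08 for Drd1, 0.08 for Drd2 and −0.05 for Adora2a.

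Drd3 had 1.1, 1.08 and 1.15 CPM after formalin against 3.71, 2.66 and 2.04 CPM in control BNST. The formalin libraries were all below the control libraries and differed little among themselves, with 19, 20 and 27 counts. The log2 fold change was −1.32 (SE 0.40, unadjusted p = 0.0043, edgeR adjusted p = 0.12), and it passed the call rule once BNST CFA replicate 2, a library outside this contrast that enters the shared spread, was left out (edgeR adjusted p = 0.043). Drd5 and Adora1 had log2 fold changes of −0.03 and 0.10, with 95% intervals of −0.65 to 0.59 and −0.41 to 0.61. In the lane 2 libraries Adora1 was called at 0.68 (edgeR adjusted p = 0.022), again against control replicate 3 alone.

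Formalin and CFA were compared directly to ask where the pain models differ. Drd1, Drd2 and Adora2a were higher after formalin than after CFA, 3 of 6 genes, beside 3.91% of all genes called higher and 6.87% called either way. The study names the same 3 genes for this comparison, from the same libraries, and the 6 genes were chosen with earlier results known. The share is therefore not separate support. The log2 fold change was 1.85 for Drd1 (SE 0.30, edgeR adjusted p = 0.002), 1.42 for Drd2 (SE 0.30, adjusted p = 0.007) and 2.88 for Adora2a (SE 0.45, adjusted p = 0.0017). The values in the formalin and CFA libraries did not overlap for any of the 3, but how many of all genes separate in this way was not counted. At an unadjusted p under 0.05 (edgeR) there were 3 of 6 genes, beside 30.8% of all genes. With the 6 libraries of this comparison alone, the call of Adora2a was lost (log2 fold change 2.93, edgeR adjusted p = 0.061). Drd3, Drd5 and Adora1 differed by −0.49, 0.02 and −0.08, and their values overlapped. This comparison shares its CFA libraries with that of CFA and control, so their values are not independent.

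In the mPFC, no receptor gene was called in any of the 3 treatment comparisons. The share of all genes called was 0.269% for formalin minus control, 0.632% for CFA minus control and 0.932% for formalin minus CFA. At an unadjusted p under 0.05 the count was also 0 of 6 in each, and DESeq2 and limma-voom called none. Drd1 had 15.8, 13.2 and 17.7 CPM after formalin and 15.2, 16.7 and 19.9 CPM after CFA, against 15.2, 13.5 and 15.8 CPM in control mPFC. The 9 libraries spanned 1.51-fold for Drd1 and 1.21-fold for Adora1, compared with 15.6-fold and 2.41-fold in the 9 BNST libraries. The 95% interval of the log2 fold change for CFA minus control was −0.46 to 0.89 for Drd1, −0.44 to 0.56 for Adora1 and −0.75 to 0.47 for Drd5. It was wider for Drd2 (−0.68 to 1.27) and Adora2a (−1.29 to 1.38), which had 98 and 153 counts over the 3 control libraries. For Drd3 a treatment difference was not detectable at this depth.

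The difference of the CFA response between BNST and mPFC was tested as an interaction. It was called for 3 of 6 genes, beside 4.17% of all genes. The BNST change minus the mPFC change was −2.77 on the log2 scale for Drd1 (SE 0.44, edgeR adjusted p = 0.0025), −2.38 for Drd2 (SE 0.55, adjusted p = 0.023) and −3.92 for Adora2a (SE 0.77, adjusted p = 0.011). For formalin minus CFA it was 1.99 for Drd1 (edgeR adjusted p = 0.018), 3.12 for Adora2a (adjusted p = 0.034) and 1.97 for Drd2, which was not called (adjusted p = 0.054). That made 2 of 6 genes, beside 4.17% of all genes. In CFA minus control, Drd2 lost its call without mPFC control replicate 1 or 2 or mPFC CFA replicate 2 or 3, while Drd1 and Adora2a kept theirs. Drd2 also lost it with limma-voom, without a filter on low counts, with the replicate block and in the lane 2 libraries (adjusted p = 0.12, 0.067, 0.12 and 0.082). In formalin minus CFA, Adora2a lost its call without 9 of the 12 libraries compared, that is all but BNST formalin replicate 3 and BNST CFA replicates 2 and 3, and Drd1 without BNST formalin replicate 2 (edgeR adjusted p = 0.05016). Adora2a also lost it with limma-voom and without a filter on low counts, and Drd1 with the replicate block. For formalin minus control none of the 6 was called, beside 0.158% of all genes, and none had an unadjusted p under 0.05 or a call by DESeq2 or limma-voom.

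Regions share animals, all 3 in each treated group and 2 in the control group. With the animal number as a block, no receptor was called in either interaction. For CFA minus control the values were −2.71 for Drd1, −2.12 for Drd2 and −3.98 for Adora2a (edgeR adjusted p = 0.078, 0.24 and 0.076), and 456 genes were called, against 792 without the block. For formalin minus CFA they were 2.06, 1.94 and 3.28 (edgeR adjusted p = 0.094, 0.21 and 0.083), and 525 genes were called, against 792. For formalin minus control 5 genes were called with the block and 30 without it, no receptor among them.

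The 3 receptors that fell after CFA moved with striatal markers in the same libraries. The 27 striatal medium spiny neuron markers, a list that holds no receptor of the 6, summed to 1674 to 2352 CPM after CFA (median 2171) and 3788 to 5057 CPM after formalin (median 4414), against 4576 to 8950 CPM in control BNST (median 7028). None of the 27 was at 0 in any BNST library. After CFA 24 of the 27 fell and none rose, with a median log2 fold change of −1.91, and after formalin 3 fell and none rose, with a median of −0.60. In the mPFC they summed to 1443 to 1576 CPM over the 9 libraries, and none of the 27 was called. The part of tissue composition in the change of the receptors was not tested.

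Other tissue markers also moved in the BNST. After CFA, 5 of 6 habenula markers rose, with sums of 67.5 to 132 CPM against 15 to 38.2 CPM in control BNST. In control BNST, 2 of the 6 were at 0 in replicates 1 and 3. The same list summed to 78.7 to 121 CPM in the mPFC libraries, so its sum is not specific to habenula. The thalamus markers summed to 693 to 1057 CPM after CFA against 148 to 807 CPM in control BNST, and 2 of 5 rose. The GABAergic markers, shared by most BNST neurons, overlapped at 1553 to 1976 CPM after CFA and 1449 to 2398 CPM in control BNST, and 2 of 8 fell. The defining choroid plexus markers ran from 177 to 17684 CPM after CFA and from 34.4 to 739 CPM in control BNST. Their part in the receptor results was not tested.

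**Figure D3:**
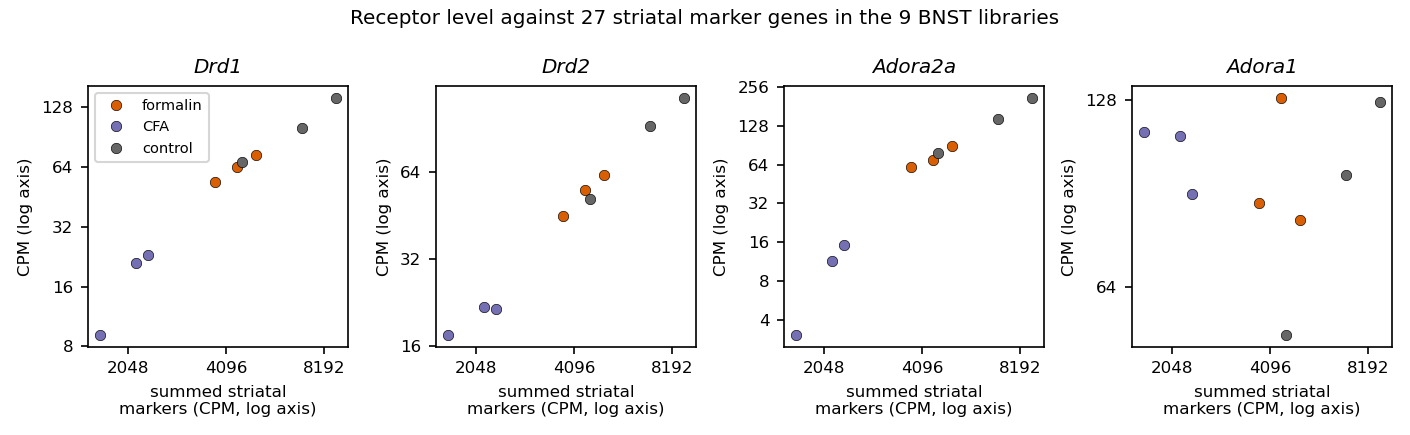
Level of Drd1, Drd2, Adora2a and Adora1 (y axes, CPM, log scale) against the summed level of 27 striatal marker genes (x axis, CPM, log scale) in the 9 BNST libraries, coloured by treatment. Drd1, Drd2 and Adora2a are lowest in CFA replicate 3, where the sum is 1674 CPM, and highest in control replicate 2, where it is 8950 CPM; Adora1 does not follow the sum.

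Relative to this striatal sum, Drd1 and Drd2 differed less between CFA and control than in CPM, and Adora2a still differed widely. The sum is not specific to striatal neurons. It was 1443 to 1576 CPM in the mPFC, where Adora2a was at 1.86 to 3.09 CPM, and 1674 to 2352 CPM in the BNST after CFA. The ratio of a gene confined to striatal neurons can therefore fall when striatal content falls, and the part of this was not tested. Per 1000 CPM of striatal markers, Adora2a stood at 5.31, 6.49 and 1.82 after CFA, at 15.7, 17.6 and 16.1 after formalin, and at 20.7, 23.7 and 17.2 in control BNST. The CFA libraries lay below all others, and formalin and control overlapped. Drd1 stood at 9.74, 9.85 and 5.47 after CFA, at 14.6, 14.5 and 14.2 after formalin, and at 14.4, 16.0 and 14.9 in control BNST. Formalin and control overlapped, and the CFA libraries were lower. Drd2 stood at 10.04, 9.15 and 10.5 after CFA, at 12.6, 12.3 and 11.9 after formalin, and at 13.1, 12.9 and 11.3 in control BNST.

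On the log2 scale, CFA minus control was −2.36 for Adora2a, −0.90 for Drd1 and −0.33 for Drd2 (exact two-sided permutation test, p = 0.1 each, the smallest that 3 against 3 allow). Formalin minus control was −0.30 for Adora2a, −0.06 for Drd1 and −0.01 for Drd2 (exact permutation test, p = 0.2, 0.3 and 0.9). Against the summed GABAergic markers, CFA minus control was −3.93 for Adora2a, −2.48 for Drd1 and −1.90 for Drd2 (p = 0.1 each, the same exact test). Adora1 per 1000 CPM of striatal markers stood at 51.6, 38.4 and 68.0 after CFA, at 29.3, 16.2 and 23.1 after formalin, and at 13.8, 14.2 and 11.7 in control BNST. These are higher in every CFA library than in any formalin library, and higher in every formalin library than in any control library. Adora1 itself was not called against control in either treatment, and its CPM values overlapped. The striatal sum that divides it had a median of 2171 CPM after CFA, 4414 CPM after formalin and 7028 CPM in control BNST. Against the summed GABAergic markers, Adora1 differed by 0.38 for CFA minus control and for formalin minus control (exact permutation test, p = 0.7 each).

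Ratios between receptors in 1 library do not depend on its scaling, but they can depend on its mix of cells. The part of striatal content in these ratios was not tested. Adora2a and Drd2, which are found together in indirect-pathway neurons, gave 0.529, 0.709 and 0.174 Adora2a counts per Drd2 count after CFA, 1.25, 1.42 and 1.36 after formalin, and 1.58, 1.84 and 1.53 in control BNST. The 3 groups did not overlap. On the log2 scale the ratio differed by −2.03 between CFA and control and by −0.29 between formalin and control (exact two-sided permutation test, p = 0.1 each). Drd1 counts per Drd2 count were 0.970, 1.08 and 0.523 after CFA, 1.16, 1.18 and 1.20 after formalin, and 1.10, 1.24 and 1.32 in control BNST, a log2 difference of −0.58 between CFA and control (exact permutation test, p = 0.1). CFA replicate 3 gave the lowest value of both ratios.

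**Figure D4:**
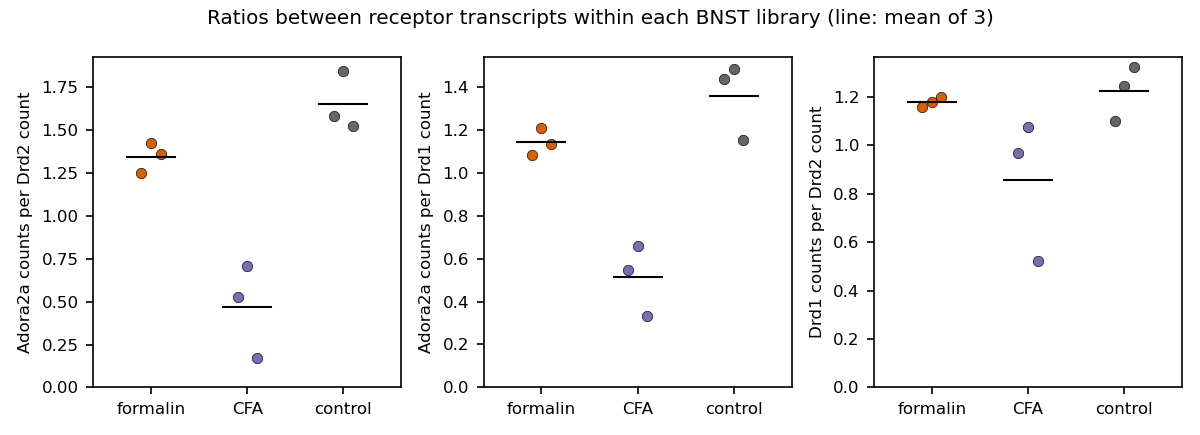
Counts of one receptor per count of another in each of the 9 BNST libraries (y axes, linear from 0), by treatment, with the mean of 3 libraries as a line. Adora2a per Drd2 was 0.174 to 0.709 after CFA, 1.25 to 1.42 after formalin and 1.53 to 1.84 in control BNST.

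Across the 9 BNST libraries, Drd1 and Adora2a varied together in log2 CPM (Pearson r = 0.998), and Drd2 followed Drd1 (r = 0.972) and Adora2a (r = 0.962). These are descriptions over 9 libraries that share group differences and striatal content. Adora1 had r of −0.128 with Drd1, −0.016 with Drd2 and −0.160 with Adora2a. Among 12316 genes with a symbol and a mean of at least 5 CPM, those most like Drd1 included Adora2a (0.998), Arpp21 (0.997), Penk (0.997) and Gng7 (0.994). Those most like Adora2a included Drd1, Arpp21, Penk and Gng7 (0.991 to 0.998). Penk encodes the precursor of the enkephalins and Gng7 a G protein gamma subunit of striatum. Those most like Drd2 included Pde10a (0.998), Rgs9, Adcy5 and Rarb (0.992 to 0.994). Pde10a degrades cyclic nucleotides, Rgs9 speeds the turn-off of G proteins and Adcy5 is the main adenylyl cyclase of striatum.

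The genes most like Adora1 in the BNST were Slc30a3 (0.960), Cck (0.960), Sema7a (0.957), Nell2 (0.945) and Lynx1 (0.940). Slc30a3 encodes the zinc transporter of glutamate vesicles and Cck the peptide cholecystokinin, both abundant in cortex. The cortical pyramidal markers summed to 223 to 240 CPM after CFA, 153 to 616 CPM after formalin and 84.9 to 247 CPM in control BNST, and none of the 9 was called in either treatment against control. Formalin replicate 1 held the highest sum in the BNST and the highest Adora1 (616 and 129 CPM), and control replicate 3 the lowest of both (84.9 and 53.6 CPM). The part of cortical tissue in the spread of Adora1 was not tested. In the 9 mPFC libraries, the genes most like Adora1 among 11802 were Atp6v0d1, Rnf19b, Hnrnpul2, Rfwd3 and Yars (r = 0.925 to 0.958), over an Adora1 range of 145 to 176 CPM. Those most like Drd3 (Gm46430, Pcdhac2, Dnajc16, Coa5 and Tk2, r = 0.899 to 0.911) and Drd5 (Lrrn2, Calm3, Slc35f6, Vps50 and Vash1, r = 0.903 to 0.954) rest on 19 to 60 counts per library for Drd3 and 24 to 55 for Drd5.

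The signalling genes downstream of these receptors fell in part with them. Of 34 G protein, adenylyl cyclase, phosphodiesterase and regulator genes, 14 fell and none rose in the BNST after CFA, beside 7.06% of all genes called lower, with a median log2 fold change of −0.30. The largest falls were those of Pde10a, at 106 ± 13.9 CPM after CFA against 679 ± 326 CPM in control BNST (log2 fold change −2.68), and Rgs9, at 33.8 ± 6.8 against 213 ± 80.8 CPM (−2.66). Arpp21, a cyclic AMP-regulated phosphoprotein, fell to 134 ± 42.5 CPM against 554 ± 135 CPM (−2.05), and Gng7 to 128 ± 34.7 against 520 ± 138 CPM (−2.02; edgeR adjusted p of at most 3.3e-05 for the 4 genes). Of the 14, 8 belong also to the striatal marker list, and the other 6 were Arpp21, Pde2a, Pde7b, Prkar2b, Rgs14 and Rgs2. After formalin only Gnal, the G protein alpha subunit through which Drd1 and Adora2a signal in striatum, was called (log2 fold change −0.57, edgeR adjusted p = 0.023). In formalin minus CFA 9 of the 34 were higher, beside 3.91% of all genes, led by Rgs9 (1.95), Pde10a (1.75), Rgs14 (1.63) and Gng7 (1.47). None of the 34 was called in the mPFC.

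In the BNST after CFA, the genes called in the dopamine and adenosine metabolism lists were all higher than in control BNST. Of 8 genes tested for dopamine synthesis, uptake and breakdown, 4 rose in the BNST after CFA, beside 11.9% of all genes called either way, and the median log2 fold change of the 8 was 0.75. Aldh1a1, an aldehyde dehydrogenase of dopamine neurons and other cells, was at 75.0 ± 12.5 CPM after CFA against 28.1 ± 12.6 CPM in control BNST (log2 fold change 1.42, edgeR adjusted p = 0.0049). Maob, a monoamine oxidase, was at 87.2 ± 21.9 against 47.7 ± 19.8 CPM (0.87, edgeR adjusted p = 0.024), and Ddc, which makes dopamine from its precursor, at 15 ± 2.3 against 8.87 ± 0.23 CPM (0.76, adjusted p = 0.017). Gch1, which makes the cofactor of dopamine synthesis, was low throughout and rose, with 1.78 ± 0.35 CPM after CFA against 0.660 ± 0.155 CPM in control BNST (1.42, edgeR adjusted p = 0.016). Th, the rate-limiting enzyme of dopamine synthesis, was lower after formalin than after CFA (−1.28, edgeR adjusted p = 0.0054).

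Of 14 genes tested for adenosine production, uptake and breakdown, 2 were called in the BNST after CFA, both higher. They stand beside 11.9% of all genes called either way, including 7.06% called lower. The median log2 fold change of the 14 was 0.01, as over all genes. Adk, the kinase that removes adenosine, was at 59.8 ± 8.0 CPM after CFA against 37.7 ± 4.9 CPM in control BNST (log2 fold change 0.66, SE 0.10, edgeR adjusted p = 2.0e-04). Pnp, which breaks down inosine, was at 10.4 ± 3.7 against 6.93 ± 1.15 CPM (0.59, edgeR adjusted p = 0.0499). The BNST change of Adk also differed from the mPFC change (0.51, edgeR adjusted p = 0.047). After formalin no gene of either list was called, and in the mPFC none was called in any treatment comparison.

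**Figure D5:**
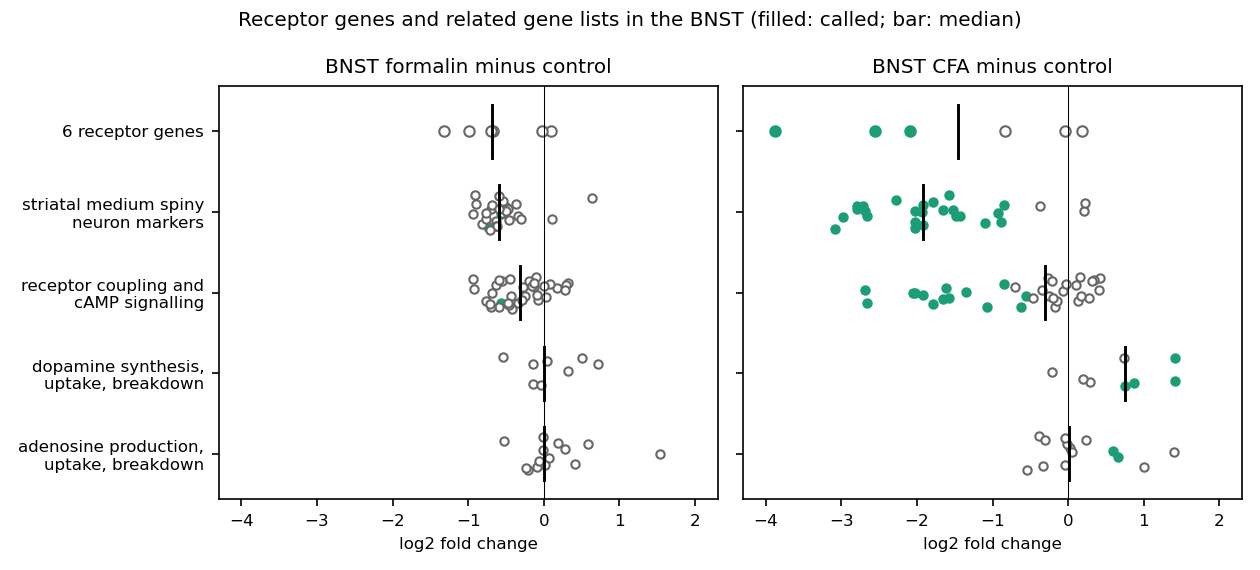
Log2 fold change (x axis) of the 6 receptor genes and of 4 gene lists (rows) in the BNST for formalin minus control (left) and CFA minus control (right), 1 point per gene, filled where called, with the median as a bar. The striatal list has a median of −1.91 and the dopamine synthesis, uptake and breakdown list 0.75 after CFA.

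Of the remaining receptors of both families, Adora2b, an adenosine receptor of low affinity, was at 4.97, 11.1 and 4.55 CPM after CFA, at 5.77, 6.07 and 6.89 CPM after formalin, and at 2.22, 4.88 and 3.22 CPM in control BNST. It rose after CFA (log2 fold change 1.0, SE 0.31, edgeR adjusted p = 0.031), although the libraries overlapped and CFA replicate 2 was far above the others. That library is the one richest in choroid plexus markers, and the Adora2b call was not rechecked without it. After formalin the Adora2b values were all above those of the control libraries, without a call (0.86, edgeR adjusted p = 0.16). The part of choroid plexus in the Adora2b values was not tested. Adora3 had 5 to 20 counts in each library and no call in any comparison. Drd4 had 0 to 13 counts per library and was not tested.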

How the data were processed

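Reads of 18 polyA RNA libraries were, per the labels and the study's methods, trimmed by the authors with Trimmomatic 0.39, aligned to GRCm38/mm10 with HISAT2 2.2.1, handled with SAMtools and counted per gene with featureCounts 2.0.1. The deposited values are unnormalised counts per gene; annotation release and strand setting are not given in the sources used here. Symbols, positions and exon lengths came from GENCODE M21, and 55141 of 55401 identifiers had a symbol.

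Groups came from the sample titles. Genes passing filterByExpr (minimum count 10, minimum total 15) were fitted in R 4.3.3 with edgeR 4.0.16 (TMM, robust quasi-likelihood, 6 groups, 12 residual degrees of freedom), and 12 comparisons were drawn from that model. The calling thresholds follow the study's methods. P-values were adjusted over all 18994 genes tested. CPM and TPM were computed from the counts, and log2 CPM used a prior count of 2. Ratios were compared with exact permutation tests in scipy 1.17.1 (Python 3.11.15). In simulated data for BNST CFA minus control (18711 genes), 59% of genes changed by 1 and 87% of those changed by 2 on the log2 scale were recovered, with 11 unchanged genes called.

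Named were all 6 receptors, the 5 genes most correlated with each, up to 4 called genes of each pathway list with the greatest change, and the other receptors of both families; some genes that the rule selects are not reported here. The members and the 17 gene lists were chosen with earlier results of these data known. Promoter windows were those of RefSeq (GRCm38.p6). Alternatives were DESeq2 1.42.0, limma-voom (limma 3.58.1), RLE factors, other filters (none, or 1 CPM and a total of 200 counts), no fold threshold, fewer libraries, a replicate block, animal numbers as a block, lane 2 alone and leaving out each library. Regions share animals by the supplementary headers. Deviations of the same animal in the other region correlated at −0.032 to 0.166 over 8 pairs, 2 of them above 0.1.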

Additional observations from a re-analysis of the deposited data

Results flagged for a closer look

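The response of 3 receptors to CFA differed between BNST and mPFC by the interaction test. The BNST change minus the mPFC change for CFA minus control was −2.77 for Drd1, −2.38 for Drd2 and −3.92 for Adora2a on the log2 scale. For formalin minus CFA it was 1.99 for Drd1 and 3.12 for Adora2a. None of the 5 was called with the animal number as a block.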

How the results depend on the processing

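Every call for Drd1, Drd2 and Adora2a in BNST CFA minus control held under the 28 alternatives, and no called value changed sign. Of these alternatives, the lane 2 fit has a lone BNST control library assumed to vary like the other groups. The fit without a fold threshold could not lose a call, and leaving out a library of another group acts only through the shared model. The highest adjusted p of these BNST calls (edgeR, DESeq2 or limma-voom) was 0.041, for Adora2a. Of 1974 receptor log2 fold changes under an alternative, 66 changed sign with neither value called (lowest adjusted p 0.55). In the lane 2 libraries, 1 receptor was called in BNST formalin minus control and 1 in its difference between regions, against 0 with all libraries. The region difference of formalin minus CFA, with 2 receptors called, gave 1 with limma-voom, 1 without a filter and 1 with the replicate block, but 3 with DESeq2, with the stricter filter and in the lane 2 libraries. With animal numbers as a block it gave 0, and that of CFA minus control also 0, against 3. The replicate block of the labels, limma-voom and no filter gave 2 there, and the block left the other numbers of receptors called as they were. Replicate numbers share no animal between treatments: deviations of same-numbered samples correlated at −0.193 to 0.308, above 0.1 in 4 of 18 pairs. Leaving out 1 library gave 0 to 1 receptors called in BNST formalin minus control, 4 to 5 between regions in control mice and after formalin, 2 to 4 after CFA, and 2 to 3 and 0 to 3 for the region differences of CFA minus control and formalin minus CFA. Against the GABAergic marker sum, the log2 ratio for CFA minus control was −2.48 for Drd1, −1.90 for Drd2 and −3.93 for Adora2a. Depth limits Drd3 most, with 307 counts over 18 libraries.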

Other observations

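Maoa, a monoamine oxidase, was not called within the BNST, yet its BNST change differed from its mPFC change. It was at 49.4 ± 3.0 CPM after CFA against 43.2 ± 8.3 CPM in control BNST, and at 23.1 ± 1.2 CPM after CFA against 32.5 ± 3.1 CPM in control mPFC. The difference between these changes was 0.69 on the log2 scale (edgeR adjusted p = 0.021).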
